A study of Mus musculus with 8 samples.

Results

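The genes described here encode the Eph receptors and their ephrin ligands, the SLIT ligands and their ROBO receptors, and the netrins and repulsive guidance molecules (RGM) with their receptors. They were taken from a fixed list of 37 gene symbols in 9 roles. The rule for membership is the list itself and uses no measured value, though the list was drawn up with earlier results of these data known. A row of the count table was found for 36 of the 37, of 48526 genes in all. Ntn3 was not analysed here. The libraries come from the heart field of 4 wild-type C57bl6/J male mouse embryos at E8.5f, the stage at which the heart tube loops. The heart field is the tissue that supplies cells to the growing heart tube. It was dissected from below the headfolds down to the second somite, after the heart and the back of the embryo had been taken off, and it was cut along the midline. A left and a right library were made from each embryo (L29-3, L43-5, L46-8 and L49-3), which gives 4 left and 4 right libraries with no treatment and no mutant allele. The study asked which genes differ between the left and the right heart field of the same embryo.

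Eph receptors are receptor tyrosine kinases that bind ephrins on the surface of a neighbouring cell, so that contact signals in both cells. EphA receptors mainly bind ephrin-A ligands, which are held in the membrane by a lipid anchor, and EphB receptors mainly bind the transmembrane ephrin-B ligands. SLITs are secreted proteins that repel cells and axons through ROBO receptors, and netrins attract through DCC and neogenin or repel through UNC5 receptors. These proteins are best known from axon guidance. In the early embryo they also act in vessels, somites, neural crest and the heart, where EphB4 and ephrin-B2 mark veins and arteries and SLIT3 and ROBO1 act in cardiac development.

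The smallest library held 1147446 counted reads, the largest 3520753, and the median was 1916167. Of the 36 genes, 26 passed the filter for testing, which asked for 20 or more normalized counts in 4 or more libraries. A normalized count is the read count divided by the DESeq2 size factor of its library. The 26 had mean normalized counts from 28.9 (Rgmb) to 358 (Neo1), and 23 of them reached 20 in all 8 libraries. The other 10 were Epha3, Epha5, Epha8, Ephb6, Efna3, Robo3, Ntn4, Unc5a, Unc5d and Dcc, with means from 0.357 to 13.5.

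The left was compared with the right in an edgeR quasi-likelihood fit with the embryo as a block, over all 9744 tested genes. Values are listed in the order of embryos L29-3, L43-5, L46-8 and L49-3 throughout. The study's threshold asks for a 1.2-fold difference or more in either direction and for an unadjusted p no higher than 0.05. It was passed by 3 of the 26 guidance genes. They were Epha7 and Ephb3, which encode Eph receptors, and Slit3, which encodes a SLIT ligand. All 3 were higher on the left, and none of the 26 passed as lower on the left. Over all tested genes 3.05% passed, of which 1.63% were higher and 1.42% were lower on the left. None of the 26 had an adjusted p under 0.05, which 0.0103% of all tested genes had. The smallest adjusted p among them was 0.987 in edgeR. At an unadjusted p under 0.05 edgeR counted 4 of the 26, against 4.36% of all tested genes. limma counted 6, against 4.69%, and DESeq2 counted 1, against 0.667%, and none had an adjusted p under 0.05 in limma or DESeq2 either. The sequences around the starts of the 3 genes are shown first, since they are the members that passed.

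The windows run from 250 bases before to 50 bases after the RefSeq start of each gene, in GRCm38.p6 and 5′ to 3′ on the strand of the gene, which is the plus strand for all 3. The capital that stands alone marks the start base, and the capitals in the run of 6 mark a motif.
Epha7, chr4:28812881-28813180: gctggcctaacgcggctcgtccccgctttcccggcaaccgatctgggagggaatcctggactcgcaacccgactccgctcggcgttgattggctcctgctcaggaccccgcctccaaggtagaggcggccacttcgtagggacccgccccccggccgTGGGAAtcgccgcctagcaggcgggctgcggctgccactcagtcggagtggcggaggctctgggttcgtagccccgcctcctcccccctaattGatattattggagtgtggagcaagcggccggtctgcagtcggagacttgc
Ephb3, chr16:21204545-21204844: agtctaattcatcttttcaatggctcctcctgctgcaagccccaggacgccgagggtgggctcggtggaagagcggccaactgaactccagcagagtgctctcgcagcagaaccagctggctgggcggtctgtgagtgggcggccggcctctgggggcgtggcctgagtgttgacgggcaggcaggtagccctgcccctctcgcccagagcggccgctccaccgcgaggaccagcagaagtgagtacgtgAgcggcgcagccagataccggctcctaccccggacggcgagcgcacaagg
Slit3, chr11:35121206-35121505: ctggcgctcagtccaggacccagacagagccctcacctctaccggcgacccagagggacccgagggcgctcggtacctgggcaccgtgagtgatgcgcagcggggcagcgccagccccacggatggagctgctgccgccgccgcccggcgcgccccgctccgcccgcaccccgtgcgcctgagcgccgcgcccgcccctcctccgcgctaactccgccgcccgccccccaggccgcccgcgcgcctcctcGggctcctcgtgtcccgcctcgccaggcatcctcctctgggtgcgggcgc
Epha7 (ENSMUSG00000028289) lies on chromosome 4 from 28813131 to 28967499 in the GENCODE vM21 annotation of GRCm38, and its start is the RefSeq start. Ephb3 (ENSMUSG00000005958) lies on chromosome 16 from 21204755 to 21223305, and its annotated start precedes the RefSeq start by 40 bases. Slit3 (ENSMUSG00000056427) lies on chromosome 11 from 35121224 to 35708507, so that most of its window lies inside the gene in that annotation.

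All 3 windows were rich in GC, with 67.0% in Epha7, 66.7% in Ephb3 and 78.3% in Slit3. They held 28, 23 and 41 CpG dinucleotides, in the same order. A RefSeq window was found for 30 of the 36 genes, and those 30 had a median GC content of 65.7% against 52.7% over all 32851 windows. Their median CpG count was 23.5 against 7 over all windows. The lowest of the 30 by both measures was Robo2, with 53.3% GC and 9 CpG. Motifs were searched on both strands. TGGGAA, the core bound by RBPJ, was in the Epha7 window with its first base 93 bases before the start. It was in 6 of the 30 windows (Epha4, Efna3, Epha7, Ntn4, Robo2 and Efnb1) and in 25.6% of all windows. TAATCC was in the window of Robo3 and in 7.06% of all windows, and CACGTG was in those of Epha8 and Robo2 and in 7.15% of all. TGTGGATT was in none of the 30 and in 0.855% of all. No motif searched was in the Ephb3 or the Slit3 window.

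Levels between genes are compared per length, as normalized reads per kilobase of all annotated exons of a gene. The highest sums by role were 128 ± 6.41 per kilobase for ephrin-A ligands, 123 ± 10.3 for ephrin-B ligands and 114 ± 11.1 for EphB receptors (SD over 8 libraries). The receptors of netrin and RGM summed to 91.1 ± 12.3 per kilobase and EphA receptors to 71.3 ± 8.41. The RGM ligands summed to 32.3 ± 7.87, the netrins to 24.8 ± 4.84, the SLITs to 24.2 ± 4.26 and the ROBOs to 23.6 ± 3.90. This order depends on the length used. With the longest transcript, an alternative chosen after seeing the data, ephrin-B ligands came first at 145 ± 13.3, before EphB receptors at 134 ± 13.4 and ephrin-A ligands at 131 ± 6.42. The ROBOs then stood at 49.3 ± 7.98, above the SLITs at 31.1 ± 5.99 and the netrins at 26.5 ± 5.17. With all exons as the length, each sum was led by a few genes. Ephb4 made up 48.6% of the EphB sum, Slit3 63.2% of the SLIT sum, Robo1 61.3% of the ROBO sum, Ntn1 97.6% of the netrin sum and Rgma 88.3% of the RGM sum. The leading gene was the highest of its role in all 8 libraries for these 5 roles. Epha2 led the EphA receptors in 7 of 8 libraries, Efna2 the ephrin-A ligands and Efnb1 the ephrin-B ligands in 6 of 8, and Unc5b the netrin and RGM receptors in 5 of 8.

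**Figure D1:**
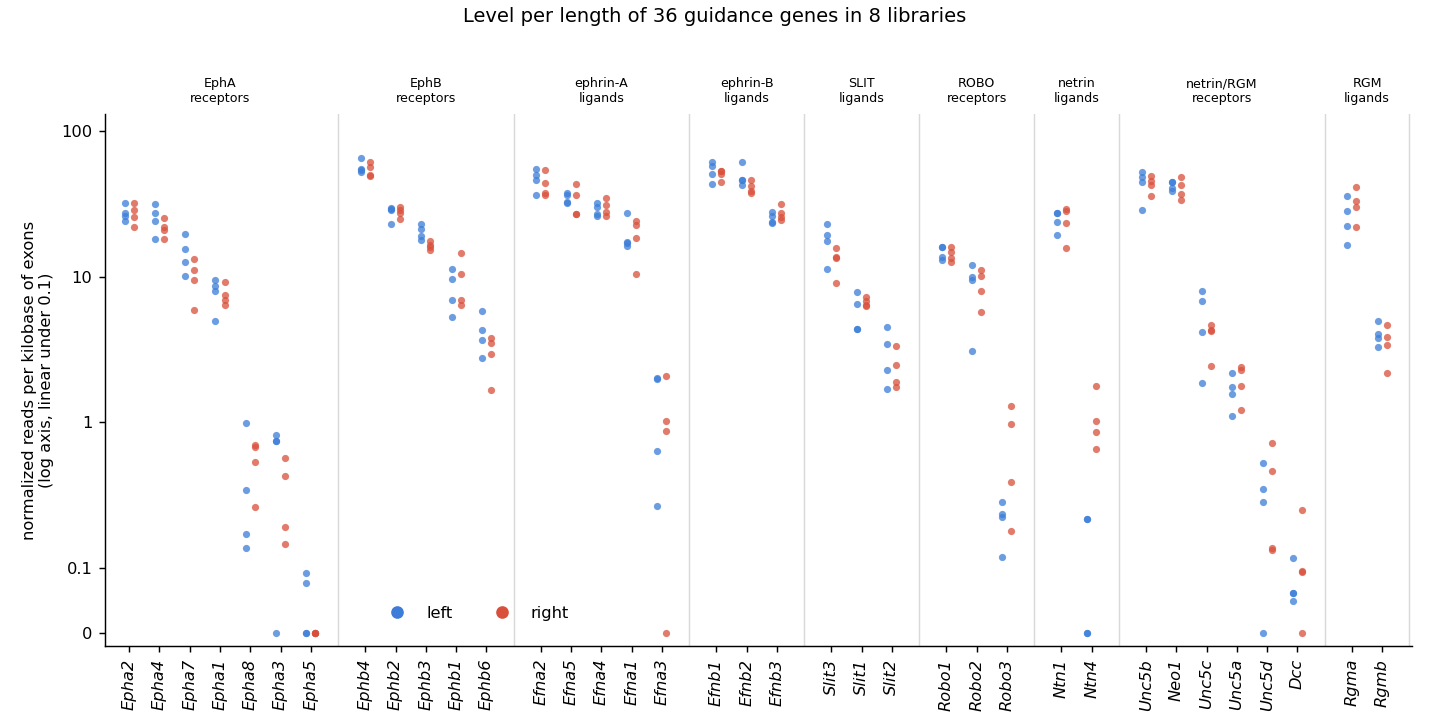
Level of 36 guidance genes in normalized reads per kilobase of exons (vertical axis, logarithmic, linear under 0.1), grouped by role and ordered by mean level. Each point is 1 library, blue for left and red for right. Ephb4, Efnb1, Efnb2, Efna2, Unc5b and Neo1 have the highest means. Epha5, Epha3, Epha8, Robo3, Ntn4, Unc5d and Dcc have means under 1.

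Among the EphA receptors, Epha7 had the largest difference between the sides. Its normalized counts were 153, 125, 194 and 99.1 on the left, against 130.0, 109, 93.9 and 58.2 on the right. Every embryo was higher on the left, while the ranges of the sides overlapped. The left mean was 143 ± 40.6 and the right mean 97.7 ± 30.2 (SD, n = 4), a fold of 1.43. In edgeR the log2 fold change was 0.51 with an SE of 0.15, a 95% interval from 0.19 to 0.84 and an unadjusted p of 0.00499 (adjusted p 0.987). The log2 ratios of the embryos, on library-scaled counts with a pseudocount of 0.5, were 0.24, 0.19, 1.03 and 0.75. Without L46-8 the log2 fold change was 0.33 and still passed, with an unadjusted p of 0.0441 in edgeR.

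Epha2, a receptor found in epithelia and the early embryo, was the highest EphA receptor per length at 27.2 ± 3.63. Its normalized counts on the left were 149, 127, 112 and 122, and on the right 149.8, 102, 119 and 135. The sides overlapped, and the log2 fold change was 0.04 with an interval from -0.21 to 0.29. Epha4, a receptor best known from somite boundaries and motor axons, had 251, 194, 146 and 219.9 on the left and 167, 147, 175 and 204 on the right. The left exceeded the right in 3 of 4 embryos, with a log2 fold change of 0.23, an interval from -0.05 to 0.51 and an unadjusted p of 0.0963 in edgeR. It passed the threshold only when L46-8 was left out, at 0.38. Epha1 had a mean normalized count of 30.0 and a log2 fold change of -0.00 with an interval from -0.49 to 0.49. Its exons share 236 bases with Zyx on the opposite strand, and Zyx had 2401 reads against 268 for Epha1. Whether counting used the strand is not given, so reads of Zyx could be part of the count of Epha1. Epha3, Epha5 and Epha8 had 40, 3 and 18 reads over all 8 libraries. The 3 reads of Epha5 were all on the left, and a count of 0, as in each right library, allows up to 3 reads.

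The EphB sum per kilobase, 98 to 131 over the libraries, lay above the EphA sum, 61.4 to 89.0. The EphB receptor that passed the threshold between the sides was Ephb3. Ephb3, which acts with Ephb2 in boundaries and axon guidance, had normalized counts of 152, 119, 140.0 and 125 on the left and 109, 117, 107 and 101 on the right. The lowest left library stood above the highest right library, and Ephb3 was the only tested guidance gene whose sides did not overlap, against 2.51% of all tested genes. The means were 134 ± 14.8 and 108 ± 6.44 (SD, n = 4), a fold of 1.22. The log2 fold change was 0.28 with an SE of 0.12, an interval from 0.03 to 0.54 and an unadjusted p of 0.0336 in edgeR (adjusted p 0.987). In L43-5 the difference was small, with a log2 ratio of 0.02, against 0.48, 0.38 and 0.30 in L29-3, L46-8 and L49-3. Ephb3 no longer passed without L29-3, L46-8 or L49-3, with log2 fold changes of 0.22, 0.25 and 0.28, nor in DESeq2 or limma with the block.

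Ephb4, the EphB receptor of veins and the receptor of ephrin-B2, had the highest level per kilobase of exons of all 36 genes, 55.2 ± 5.68. With the longest transcript as the length it was 59.0, and Efnb2 was higher at 64.0. Its normalized counts were 242, 248, 304 and 254 on the left and 262, 283, 227 and 229 on the right. Those of Ephb2 were 374, 367, 363 and 291 on the left and 380.1, 361, 315 and 342 on the right. Both genes overlapped between the sides, and their 95% intervals ran from -0.18 to 0.27 for Ephb4 and from -0.18 to 0.18 for Ephb2. Ephb1 varied more within embryos than either, with log2 ratios of -1.05 in L29-3 and 0.81 in L46-8, and its log2 fold change was -0.19 with an interval from -0.71 to 0.34. Without L46-8 it was -0.51 and passed the threshold, and without L29-3 it was 0.14. Ephb6, whose kinase domain is inactive, was under the filter, with 72 left and 49 right reads.

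**Figure D2:**
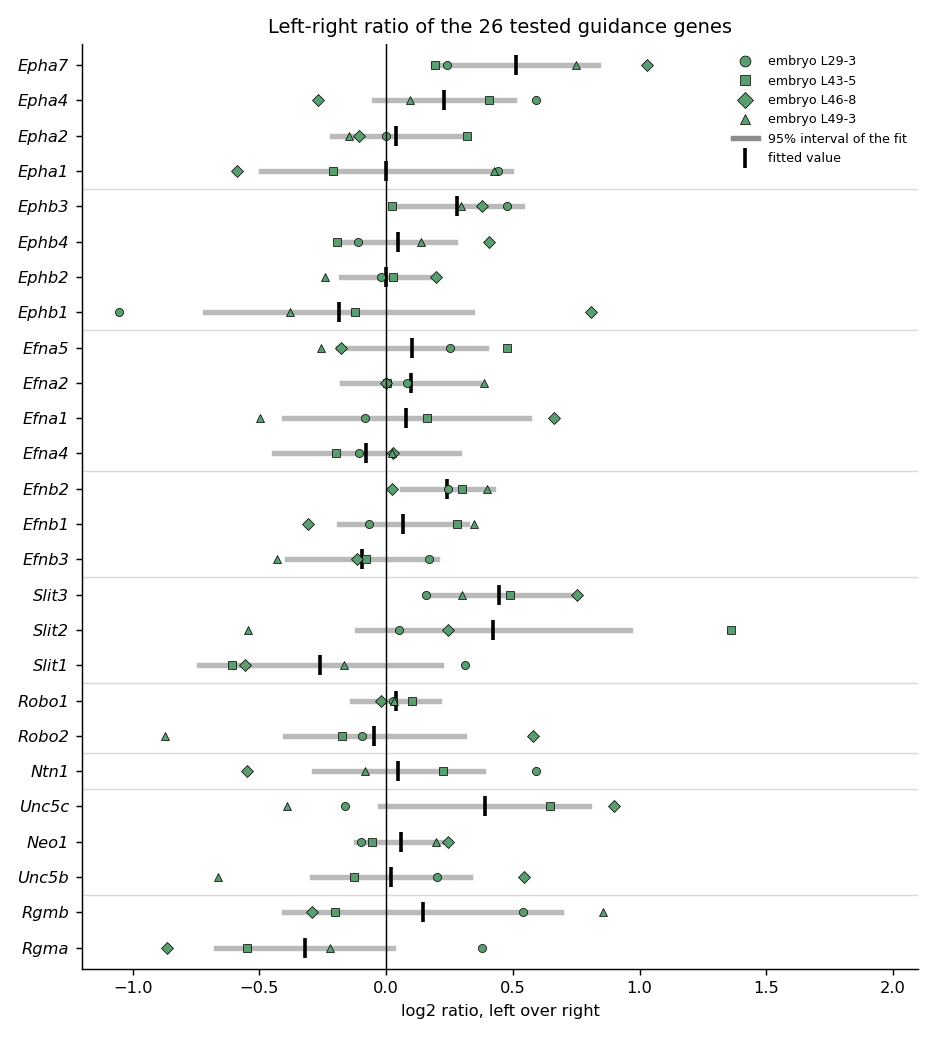
Log2 ratio of left over right for the 26 tested guidance genes, grouped by role. Each symbol is 1 embryo, the black tick is the edgeR estimate and the grey bar its 95% interval. All 4 embryos lie to the right of 0 for Epha7, Ephb3, Efnb2 and Slit3.

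The ephrin-A ligands showed no difference past the threshold. Efna2 was the highest per length at 44.7 ± 7.70, with normalized counts of 98.1, 76.9, 116 and 105 on the left and 92.8, 76.8, 115 and 79.8 on the right. Efna5, a ligand of EphA receptors in topographic mapping, had 128, 149.9, 131 and 147 on the left and 108, 108, 147 and 174 on the right. The sides of both genes overlapped, with log2 fold changes of 0.10 each and intervals from -0.17 to 0.37 and from -0.19 to 0.39. Efna1, Efna3 and Efna4 lie next to each other on chromosome 3, on the same strand with gaps of 10425 bases between Efna3 and Efna4 and 32757 bases between Efna1 and Efna3. Efna4 had a mean normalized count of 47.0, Efna1 of 35.0 and Efna3 of 2.70, so that the gene between the others was the lowest. The log2 fold changes were 0.08 for Efna1 and -0.08 for Efna4.

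Among the ephrin-B ligands, Efnb2, the ligand of arteries and a partner of Ephb4, had more on the left in each of the 4 embryos. Its normalized counts were 313, 316, 291 and 416 on the left and 265, 256, 284 and 314 on the right. The ranges overlapped between the lower left and the higher right libraries, and the means were 334 ± 56.2 and 279.8 ± 25.7 (SD, n = 4). The log2 fold change was 0.24 with an interval from 0.06 to 0.42 and an unadjusted p of 0.0120 in edgeR. The fold of 1.18 was under the minimum of 1.2, so it did not pass. Efnb2 passed when L46-8 was left out, at a log2 fold change of 0.31. Efnb1, an X-linked ligand, was the highest ephrin-B per length when all exons were counted, and Efnb2 was when the longest transcript was used. The normalized counts of Efnb1 were 174, 211, 149.8 and 198 on the left and 183, 173, 184 and 155 on the right. These overlapped, with an interval of the log2 fold change from -0.19 to 0.32, and that of Efnb3 ran from -0.39 to 0.20. The endothelium markers, among them Kdr, Cdh5 and Flt1, did not pass the threshold (0 of 7 tested) and summed to 759 to 1004 on the left and 538 to 952 on the right. Kdr, a receptor of endothelial cells, was higher on the left in each of the 4 embryos, as Efnb2 was. Its log2 fold change was 0.20, with an unadjusted p of 0.0307 in edgeR. Among the other tested markers, the log2 fold change was -0.20 for Pecam1, -0.01 for Cdh5 and 0.02 for Tie1. It was 0.33 for Tek, 0.19 for Flt1 and 0.12 for Erg. The log2 ratio of the endothelium sum was 0.49 in L49-3, where that of Efnb2 was highest at 0.40, and -0.01, 0.08 and 0.09 in the other embryos. The part of endothelium in the levels of Ephb4 and Efnb2 was not tested.

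Slit3 was the highest of the SLIT ligands per length, at 15.3 ± 4.45, and passed the threshold between the sides. Its normalized counts were 106, 117, 138 and 68.1 on the left and 95.3, 83.2, 81.2 and 54.8 on the right. Every embryo was higher on the left, and the libraries of L49-3 were the lowest of each side. The means were 107 ± 29.4 and 78.7 ± 17.1 (SD, n = 4), a fold of 1.36. The log2 fold change was 0.45 with an SE of 0.13, an interval from 0.15 to 0.74 and an unadjusted p of 0.00617 in edgeR (adjusted p 0.987). The log2 ratios were 0.16, 0.49, 0.75 and 0.30. Slit3 passed the threshold without any 1 of the 4 embryos. In DESeq2 its unadjusted p was 0.0547 and it did not pass.

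The other SLITs did not pass. Slit1 had 46.2, 26.1, 26 and 38.7 on the left and 37.1, 40.0, 38.1 and 43.2 on the right, lower on the left in 3 of 4 embryos, with a log2 fold change of -0.26 and an interval from -0.74 to 0.22. Slit2 had a log2 fold change of 0.42 with an interval from -0.11 to 0.96 and an unadjusted p of 0.111 in edgeR. That value rested on L43-5, whose left library had a normalized count of 114 and whose right library had 44.3, and it was -0.03 without that embryo. Slit2 passed the threshold without L49-3, at 0.63. Whether the SLITs differed from each other was not tested.

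Neither of the 2 tested ROBO receptors differed between the sides beyond their spread. Robo1 had the smallest spread of log2 ratios of the 26 genes (SD 0.05, n = 4), with 226, 262, 264 and 215 on the left and 223, 244, 265 and 209 on the right. The fitted log2 difference was 0.04, with an interval from -0.13 to 0.21. Robo2 had 161, 168, 203 and 52.6 on the left and 172, 189, 135 and 96.4 on the right, with the libraries of L49-3 the lowest on each side, and its interval ran from -0.40 to 0.31. Robo1 and Robo2 are neighbours on chromosome 16, on opposite strands with 845744 bases between them. Robo3, which alters the response to SLIT in crossing axons, was not tested. It had 7 left and 17 right reads, with fewer on the left in 3 of 4 embryos. The right-to-left ratio was 2.75 per total read (exact 95% interval from 1.08 to 7.85, counting error only). The unadjusted p of Robo3 in an edgeR fit with no filter was 0.113 (adjusted p 0.997).

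Of 16 tested effectors of SLIT and ROBO, 1 passed the threshold as higher on the left, against 1.63% of all tested genes. None passed as lower on the left, against 1.42%. The effector that passed was Srgap1, a GTPase-activating protein that binds ROBO1. Its normalized counts were 101, 108, 109.9 and 122 on the left and 78.0, 79.5, 78.7 and 88.1 on the right. Every left library stood above every right one, and the sides did not overlap in 2.51% of all tested genes. The log2 fold change was 0.44 with an SE of 0.12 and an unadjusted p of 0.00278 in edgeR (adjusted p 0.987). Enah, another of these effectors, ran the other way and was higher on the left in no embryo. Its log2 fold change was -0.15 with an SE of 0.06 and an unadjusted p of 0.0316 in edgeR (adjusted p 0.987). It did not pass the threshold. The median log2 fold change of the 16 effectors of SLIT and ROBO was 0.04. Among 20 tested effectors of Ephs and ephrins and 18 of netrins and RGMs none passed, with medians of 0.03 and -0.00. The list of further family members had 1 tested gene of 9, and it did not pass.

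**Figure D3:**
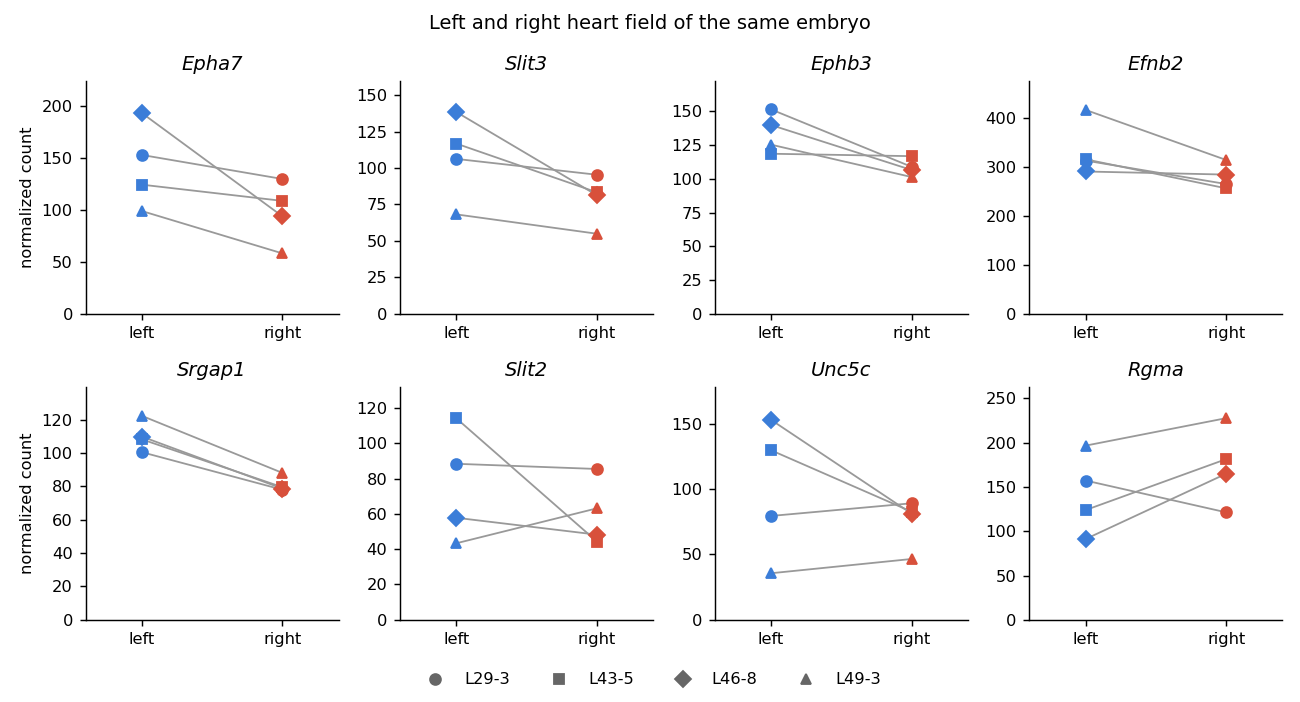
Normalized count on the left (blue) and right (red) in each embryo, joined by a line, for Epha7, Slit3, Ephb3, Efnb2, Srgap1, Slit2, Unc5c and Rgma. The symbol gives the embryo. All 4 lines fall from left to right for the first 5 genes, while those of Slit2, Unc5c and Rgma run in both directions.

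Ntn1, the main netrin, had 149, 171, 121 and 172 on the left and 99, 147, 176 and 181 on the right. The sides overlapped, and the log2 fold change of 0.05 had an interval from -0.28 to 0.38. Ntn4, a netrin of basement membranes, was under the filter. Its reads were 1, 0, 1 and 0 on the left and 2, 6, 3 and 4 on the right, so that every embryo had fewer reads on the left. Summed over libraries there were 2 left and 15 right reads, a right-to-left ratio of 8.5 per total read with an exact 95% interval from 1.98 to 76.6. That interval covers counting error only. In an edgeR fit with no filter its unadjusted p was 0.0189 (adjusted p 0.997).

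Unc5b and Neo1 led the receptors per length, with Neo1 first when the longest transcript was used. Unc5b, a netrin receptor of vessels, had 303, 280.3, 326 and 178 on the left and 265, 306, 222 and 281 on the right. Neo1, which encodes neogenin, a receptor of both netrins and RGMs, had 388, 355, 385 and 338 on the left and 417, 369, 322 and 292 on the right. Both overlapped between the sides, with intervals from -0.29 to 0.33 and from -0.12 to 0.24. Unc5c was higher on the left in L43-5 and L46-8, at log2 ratios of 0.65 and 0.90, and lower in L29-3 and L49-3, at -0.16 and -0.39. Its log2 fold change was 0.39 with an interval from -0.02 to 0.80 and an unadjusted p of 0.0616 in edgeR, and it passed without L29-3 at 0.58 and without L49-3 at 0.50. Without L46-8 it was 0.19. Dcc, the main attractive netrin receptor of neurons, had 8 reads in all, and Unc5a and Unc5d had 68 and 28. Each of these 3 had as many left as right reads.

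Rgma, the RGM with the highest level, had less on the left in 3 of 4 embryos. Its normalized counts were 157, 124, 91.2 and 197 on the left and 121, 181, 165 and 228 on the right, and the ranges overlapped. The log2 fold change was -0.32 with an interval from -0.67 to 0.03 and an unadjusted p of 0.0690 in edgeR. Without L29-3 it was -0.54 and passed, and without L46-8 it was -0.17. Rgmb had 38.1, 25.4, 29.3 and 31 on the left and 26, 29.3, 35.5 and 16.6 on the right, with an interval from -0.40 to 0.69.

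Over the 26 tested genes the median log2 fold change was 0.05, against -0.00 over all tested genes. The fit gave 19 positive and 7 negative values (left over right), and 14 lay within 0.10 of 0. The half-width of the 95% interval ranged from 0.17 to 0.55 on the log2 scale, with a median of 0.30, so that differences smaller than this were not detectable for many of the genes. The same direction in all 4 embryos was seen for 4 of the 26, Epha7, Ephb3, Efnb2 and Slit3, which is 15.4% against 12.4% of all tested genes. By role, the left exceeded the right in summed level per kilobase in 4 of 4 embryos for EphA receptors and for SLITs, in 3 of 4 for both kinds of ephrin, in 2 of 4 for EphB receptors, netrins and the netrin and RGM receptors, and in 1 of 4 for ROBOs and RGMs. With 4 pairs, the smallest two-sided p of an exact sign-flip permutation test is 0.125, so that test could not reach 0.05 for a role sum, and no other test of the sums was made. With the longest transcript as the length the SLIT sum was higher in 3 of 4.

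All 13 heart field markers were tested and none passed the threshold between the sides. They reached 20 normalized counts in all 8 libraries, except Mab21l2 (5 libraries), Fgf8 and Tbx5 (7 each). Their sum ranged from 1219 to 1924 on the left and from 1457 to 1796 on the right, in normalized counts, and Mef2c, Gata4 and Foxc2 were the highest. Markers of other tissues were present as well. In bulk libraries, fewer cells of a type and less RNA per cell cannot be told apart. Cardiomyocyte markers, led by Actc1, Myh6 and Myl7, summed to 709 to 5640 on the left and 2006 to 5421 on the right. In L49-3 their log2 ratio was -1.68. None of 7 tested passed. Neural tube markers summed to 175 to 692 on the left and 308 to 814 on the right, with Sox2, Pax6 and Sox1 the highest. Of 7 tested, Pax6 and Sox1 passed as lower on the left, with log2 fold changes of -0.83 (SE 0.29, unadjusted p 0.0142 in edgeR) and -0.98 (SE 0.35, unadjusted p 0.0167), and both were higher on the left in L29-3. None passed among surface ectoderm (6 tested), foregut endoderm (7), paraxial mesoderm (3) or neural crest markers (3). Mesp2 was at 0 in all libraries, and no primitive blood marker passed the filter.

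Rgma followed the neural tube markers over the libraries, and Slit1 had the sign of their ratio in 4 of 4 embryos. The summed neural tube markers had log2 ratios of 0.48, -0.72, -1.42 and -0.23. The ratios of Rgma were 0.38, -0.55, -0.86 and -0.22, and those of Slit1 were 0.31, -0.61, -0.56 and -0.17. Efnb3, a ligand of the neural midline, also had the sign of the markers in 4 of 4 embryos. Ntn1 had it in 3, as did Epha1, Efna5, Unc5b and Rgmb. How many of all tested genes shared the sign was not counted. Of the 28 pairs of libraries, Rgma ordered 27 as the marker sum did, Slit1 23 and Ntn1 21. Efnb3, Epha4 and Efna4 ordered 18 each. The median over the 26 genes was 12.5 pairs and over all tested genes 14. At least 27 pairs were ordered so by 0.0616% of all tested genes. The shares for 23 and 21 pairs were not counted. At the other end, Slit3 ordered 2 of the 28 pairs as the marker sum did, Unc5c 4, Epha7 5, Robo2 6, and Ephb1, Robo1 and Neo1 7 each. Over all tested genes, 0.369% had at most 2, 4.33% at most 5 and 11.4% at most 7. These genes tended to be high where the markers were low. Ephb3 had 9 and Efnb2 15. These genes were set beside the markers after their values had been seen, and the libraries share embryos, so the counts are a description. In L29-3, where the marker sum was higher on the left, the log2 ratios of Epha7, Slit3 and Ephb3 were 0.24, 0.16 and 0.48. In L46-8, where the ratio of the marker sum was lowest at -1.42, they were 1.03, 0.75 and 0.38. The part of neural tissue in these differences was not tested.

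**Figure D4:**
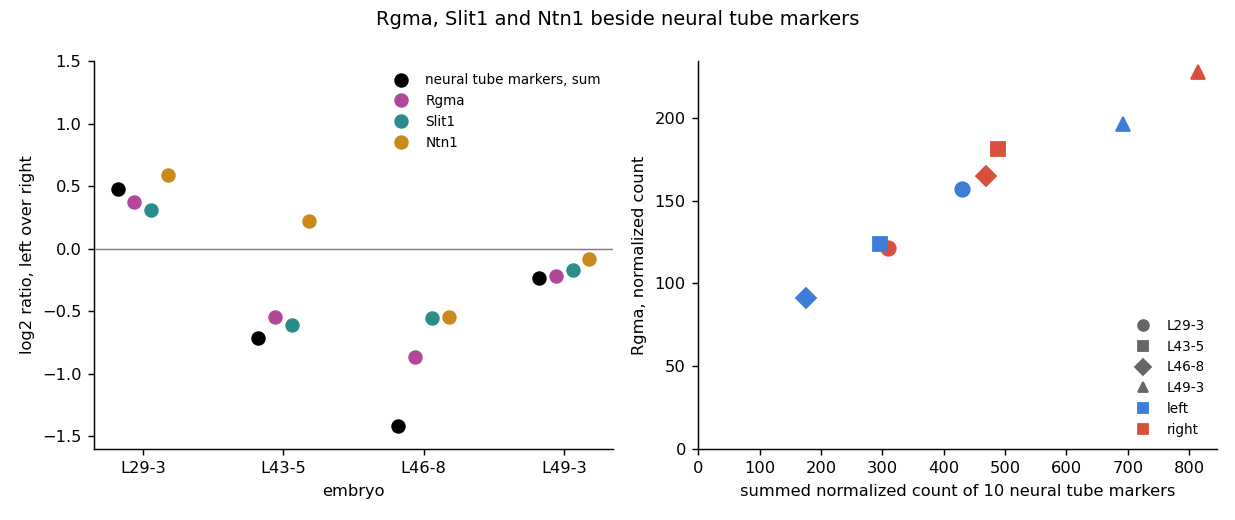
The first panel gives the log2 ratio of left over right in each embryo for the summed neural tube markers, Rgma, Slit1 and Ntn1. The second panel sets the normalized count of Rgma against the summed normalized count of the 10 neural tube markers in each of the 8 libraries (symbol, embryo; blue, left; red, right), and Rgma runs from 91.2 where the sum is 175 to 228 where it is 814.

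The embryos were compared in the same fit. In the edgeR F-test of the 3 embryo coefficients, 7 of the 26 genes had an unadjusted p under 0.05, against 9.99% of all tested genes. They were Robo2 (p 0.00174), Unc5c (p 0.00238), Slit3 (p 0.0113), Epha7 (p 0.0115), Efnb2 (p 0.0287), Efna2 (p 0.0302) and Rgma (p 0.0374). None had an adjusted p under 0.05, which 0.174% of all tested genes had, and the smallest adjusted p was 0.153, for Robo2. The libraries of 1 embryo share the animal and its stage, and the test is about these 4 embryos only.

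Embryo L49-3 stood apart for most of them. The mean of both sides of Robo2 was 74.5 in L49-3 and 166 to 178 in the other embryos, and that of Unc5c was 41.1 against 84.3 to 117. Both libraries of L49-3 were below the 6 others for 4 of the 26 genes, Slit3, Robo1, Robo2 and Unc5c, against 9.44% of all tested genes. Both were above the 6 others for Rgma alone, against 7.83%. L49-3 also had the lowest total counts and the highest sum of neural tube markers, and the part of these in its levels was not tested. Efna2 was highest in L46-8, with a mean of 116, and lowest in L43-5, with 76.9. Without L46-8, Robo2 reached an adjusted p of 0.00959 between the embryos in edgeR. The share of all tested genes that did so in that fit was not counted.

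**Figure D5:**
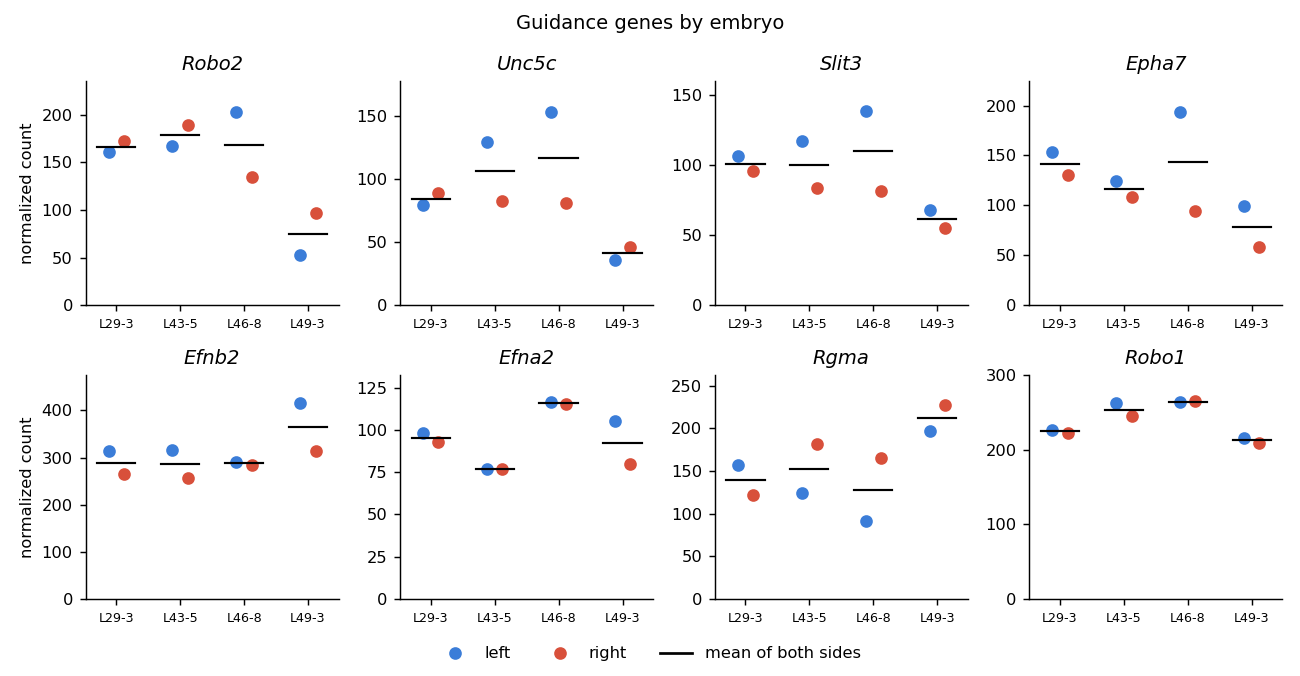
Normalized count by embryo for the 7 guidance genes with an unadjusted p under 0.05 between embryos, and for Robo1. Blue points are left and red points right libraries, and the bar is the mean of both sides. L49-3 is low for Robo2, Unc5c, Slit3 and Robo1 and high for Rgma.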

How the data were processed

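Per the labels and the methods of the study, poly-A+ RNA of each heart field side was made into libraries with the Nugen Universal Plus mRNA-Seq kit, and paired-end reads were aligned to GRCm38 (mm10) with Hisat2. Duplicate reads were excluded by the authors, which can compress the highest values, and the rest were counted with featureCounts of Subread. The deposited values are raw counts per gene. Versions of these tools and the strand setting are not given in the sources used here. Submitters' processing notes also name limma 3.40.6.

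The sides were compared with edgeR 4.0.16 (R 4.3.3), TMM and an embryo block, on 9744 genes. Adjusted p-values are Benjamini-Hochberg over these. limma 3.58.1 and DESeq2 1.42.0 were alternatives, beside another normalization, filters, no block and leaving out each embryo. Pairs come from the same animal, and same-embryo deviations correlated at 0.16, 0.19, -0.01 and 0.44, against -0.39 to 0.25 otherwise. The code was tested on simulated data. Members and lists were chosen with earlier results of these data known. Values are given in every library for members past the threshold, in the same direction in all embryos, or among the 2 highest per length of a role. List genes are named where they pass. The 3 highest are named for the heart field, neural tube, cardiomyocyte and endothelium markers only. The other tested endothelium markers and Enah are named for comparison. No member was near-identical to another (at least 90% identity over 100 bases). Outside the list, Epha1 matched 2010010A06Rik, which had 0 reads, at 95.8% over 455 bases. Epha2, Epha3, Epha5 and Ephb2 had many matches under 200 bases to other genes. The part of such matches in the counts was not tested. Sequences are from RefSeq.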

Additional observations from a re-analysis of the deposited data

Results flagged for a closer look

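In 52 groups of 4 libraries (26 genes by 2 sides), the highest and the lowest library were compared with the others by the gap divided by the range, for which the critical value is 0.829. Chance gives about 1 in 20 such groups, and 2 were found. Ephb2 on the left was 291 in L49-3, below the other left libraries at 363 to 374, with a ratio of 0.870. Efna1 on the left was 49.5 in L43-5, above the others at 29.4 to 31.6, with a ratio of 0.891. Efna1 was also highest in L43-5 on the right, at 44.3, and neither gene passed the threshold between the sides.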

How the results depend on the processing

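The count of guidance genes past the threshold was 3 with DESeq2 size factors, with library size alone and with a filter of 10 counts in every library. It was 7 with no filter (5 higher and 2 lower on the left, of 36 genes, against 2.88% of 23873 genes), where Slit2, Unc5c, Rgma and Ntn4 joined the 3, 1 in DESeq2 (1 higher, Epha7) and 4 in limma with the block. Over all genes DESeq2 passed 59 (0.606%), limma with the block 301 (3.09%) and edgeR 297. Leaving out 1 embryo gave 3 to 5, with 3 to 4 higher and 0 to 1 lower on the left, while the share of all tested genes was 2.86% to 3.96% and highest without L46-8. The 5 without L46-8 were Epha7, Slit3, Epha4, Efnb2 and Ephb1. With no replicate block edgeR called 3, the same 3 genes as with it. limma called 3 without the block (Epha7, Slit3 and Ephb3) and 4 with it (Epha7, Slit3, Slit2 and Unc5c), so there the pairing changed the genes. With no filter, the adjusted p of Epha7 between the sides was 0.0517 in edgeR. No alternative gave a guidance gene with an adjusted p under 0.05 between the sides. Between embryos, 4 had one with no filter (Robo2, Unc5c, Epha7 and Rgma) and 0 to 1 when an embryo was left out. The share of all genes called between embryos in these fits was not counted. Between the sides, the fit with no filter gave 34 of 23873 genes an adjusted p under 0.05, against 1 of 9744 with the filter. The median log2 fold change stayed between 0.03 and 0.11.

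Epha7 passed in all 12 alternatives, at 0.33 to 0.66, Slit3 in 11 and Ephb3 in 7, and none of the 3 changed sign. Epha1 turned to 0.011 with library size alone, 0.012 with no filter, 0.012 in DESeq2 and 0.00029 with no replicate block, and Ephb2 to -0.00041 with DESeq2 size factors and -0.0041 in DESeq2. When an embryo was left out, the log2 fold change crossed 0 for Epha1 (-0.15 to 0.16), Epha2 (-0.076 to 0.087), Ephb1 (-0.51 to 0.14), Ephb2 (-0.061 to 0.065), Ephb4 (-0.078 to 0.15), Efna1 (-0.064 to 0.22), Efna5 (-0.056 to 0.20), Efnb1 (-0.027 to 0.18), Slit2 (-0.032 to 0.63), Robo2 (-0.27 to 0.083), Ntn1 (-0.11 to 0.24), Unc5b (-0.15 to 0.19) and Neo1 (-0.0030 to 0.12). The cause was not tested. The highest gene per length was the same in 7 of 9 roles with the longest transcript as the length. Precision was limited by 256 to 3174 reads per tested gene and by 4 embryos.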
